A study of Mus musculus with 2 samples.

Results

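The genes described here are 7 members of the signals that make osteoclasts, found by their symbols among the 19430 genes of the deposited count tables: *Tnfsf11* (RANKL), *Tnfrsf11a* (RANK), *Tnfrsf11b* (OPG), *Csf1*, *Csf1r*, *Il34* and *Nfatc1*. All 7 were in the tables. Their levels were followed over the spots of 2 Visium sections of distal tibia fracture calluses, taken 10 days after fracture. Each section held 1 callus from a control mouse and 1 from an Nf1Postn mouse. The control was a Cre-negative Nf1[+/flox] female and the Nf1Postn mouse a Postn-cre;Nf1[flox/-] female littermate, both 8 weeks old, and both tibias were pinned, fixed in formalin and decalcified in 14% EDTA. Both mice carry 1 floxed *Nf1* allele, and the Nf1Postn mouse also carries a null allele in every cell, while Cre is driven by the periostin promoter, which is active in periosteum and its progeny. The labels number the sections as biological replicates. The methods describe control and Nf1Postn calluses embedded together in a block, and do not say whether both sections come from 1 block. The sections were not treated as separate animals, and 1 mouse per genotype was assumed. With that assumption, no test between genotypes or regions was made here, and all intervals are 95% intervals of counting error only.

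Osteoclasts are multinucleated cells of the monocyte lineage that resorb bone and calcified cartilage. Their precursors need CSF1 or IL-34, which share the receptor CSF1R, to survive, and need RANKL to differentiate. Osteoblast lineage cells, osteocytes and hypertrophic chondrocytes present RANKL, which binds RANK on the precursor and leads to induction of NFATc1, the transcription factor that turns on *Acp5*, *Ctsk* and other resorption genes. OPG is a soluble decoy receptor that binds RANKL and keeps it from RANK. In fracture healing, osteoclasts remove calcified cartilage and remodel the newly formed woven bone.

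The promoters of the RANKL, RANK and *Csf1* genes are printed because these are the only 3 members listed in the RefSeq promoter table (GRCm38.p6). All 3 had their highest control levels in the *Acp5*-rich spots described further on, as did *Csf1r* and *Nfatc1*. A link between promoter letters and levels was not tested. The table gives 250 bases before to 50 bases after the annotated start, so base 251 of each line is the start, and the deposited files use the later build mm39. Capitals mark matches on either strand to the NFAT core GGAAA and to the TATA box letters TATAAA, and the RUNX core TGTGGT, the PU.1 core GAGGAA and the AP-1 element TGANTCA were also searched and had no match in these windows. GGAAA and GAGGAA can overlap, as in GAGGAAA, whereas no capital base below belongs to 2 motifs.
Tnfsf11, chr14:78307994-78308293, minus strand: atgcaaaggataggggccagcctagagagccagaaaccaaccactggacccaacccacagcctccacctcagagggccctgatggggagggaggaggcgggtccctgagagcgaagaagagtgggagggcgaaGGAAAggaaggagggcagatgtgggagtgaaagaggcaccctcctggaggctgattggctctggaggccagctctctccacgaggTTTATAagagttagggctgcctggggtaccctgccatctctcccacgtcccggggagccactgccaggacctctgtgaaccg
Tnfrsf11a, chr1:105780473-105780772, plus strand: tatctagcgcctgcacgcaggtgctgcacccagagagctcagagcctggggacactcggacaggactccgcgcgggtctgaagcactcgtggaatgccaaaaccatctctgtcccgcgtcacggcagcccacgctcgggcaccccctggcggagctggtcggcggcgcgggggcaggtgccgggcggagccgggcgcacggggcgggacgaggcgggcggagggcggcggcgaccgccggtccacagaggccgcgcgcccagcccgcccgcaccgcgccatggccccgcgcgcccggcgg
Csf1, chr3:107760420-107760719, minus strand: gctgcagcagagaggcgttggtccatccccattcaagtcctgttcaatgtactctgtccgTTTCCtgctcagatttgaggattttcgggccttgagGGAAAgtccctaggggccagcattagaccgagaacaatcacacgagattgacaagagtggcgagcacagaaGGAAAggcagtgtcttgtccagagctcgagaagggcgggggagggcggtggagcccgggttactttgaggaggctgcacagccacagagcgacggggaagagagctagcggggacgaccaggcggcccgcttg

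The *Tnfsf11* window held a TATA box match on the opposite strand from base -32 to -27 and 1 NFAT core match from -117 to -113. The *Csf1* window held 3 NFAT core matches, and the *Tnfrsf11a* window held 0 matches to any of the 5 motifs. Of all 32851 windows, 13.6% held the TATA box letters, 61.3% the NFAT core, 16.8% the RUNX core, 28.3% the PU.1 core and 7.81% the AP-1 element. The *Tnfrsf11a* window had 76.7% G and C with 43 CpG sites, against 61.7% and 7 in *Tnfsf11* and 58.7% and 16 in *Csf1*, and the median window had 52.7% G and C. These matches describe the letters and say nothing of the binding of a factor.

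In Visium, probe pairs that hybridise to transcripts in the fixed section are captured on a grid of spots with a pitch of 100 µm, and each unique molecular identifier (UMI) counts 1 ligated pair. A spot holds several cells, so fewer cells of a type and less RNA per cell cannot be told apart. Levels are given as UMIs of the gene per 1000000 UMIs of all genes pooled over a group of spots (CPM), and since each gene has its own probes they are not compared between genes. The control callus covered 1700 and 1778 spots in sections 1 and 2 with a median of 7053 and 5719 UMIs, and the Nf1Postn callus covered 1341 and 1556 spots with 2030 and 3240 UMIs. 5 spots had no genotype label, and 2711 barcodes occur in both sections because the barcodes name grid positions. The members were sparse. Over both sections *Csf1r* had 4823 UMIs and a UMI in 38.8% of spots, *Tnfrsf11a* had 1197, *Nfatc1* 1120, *Tnfsf11* 1110, *Tnfrsf11b* 703 and *Csf1* 610, and *Il34* had the fewest, 332 in 4.66% of spots.

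Spots rich in *Acp5*, which encodes the tartrate-resistant acid phosphatase of osteoclasts, were used as a landmark of the resorbing tissue. A spot was called *Acp5*-rich if it had at least 1000 UMIs, at least 5 *Acp5* UMIs and an *Acp5* level in the highest 10% of such spots over both sections and genotypes, a threshold that fell between 4549 and 4554 CPM, the values of the spots just outside and just inside it. In the control callus 276 of 1700 spots (16.2%, 14.5 to 18.1) of section 1 and 258 of 1778 (14.5%, 12.9 to 16.2) of section 2 were *Acp5*-rich. In the Nf1Postn callus 49 of 1341 (3.65%, 2.72 to 4.8) and 9 of 1556 (0.578%, 0.265 to 1.10) were. Besides *Acp5*, which chose the spots, all 7 other osteoclast markers were higher in *Acp5*-rich control spots than in control spots over 600 µm away from one, from 9629 against 1010 CPM for *Ctsk*, the cathepsin that degrades bone collagen, to 12.8 against 1.42 CPM for *Calcr*, the calcitonin receptor. In section 1, 246 of the 271 *Acp5*-rich spots that the authors assigned to a tissue lay in their woven bone.

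**Figure D1:**
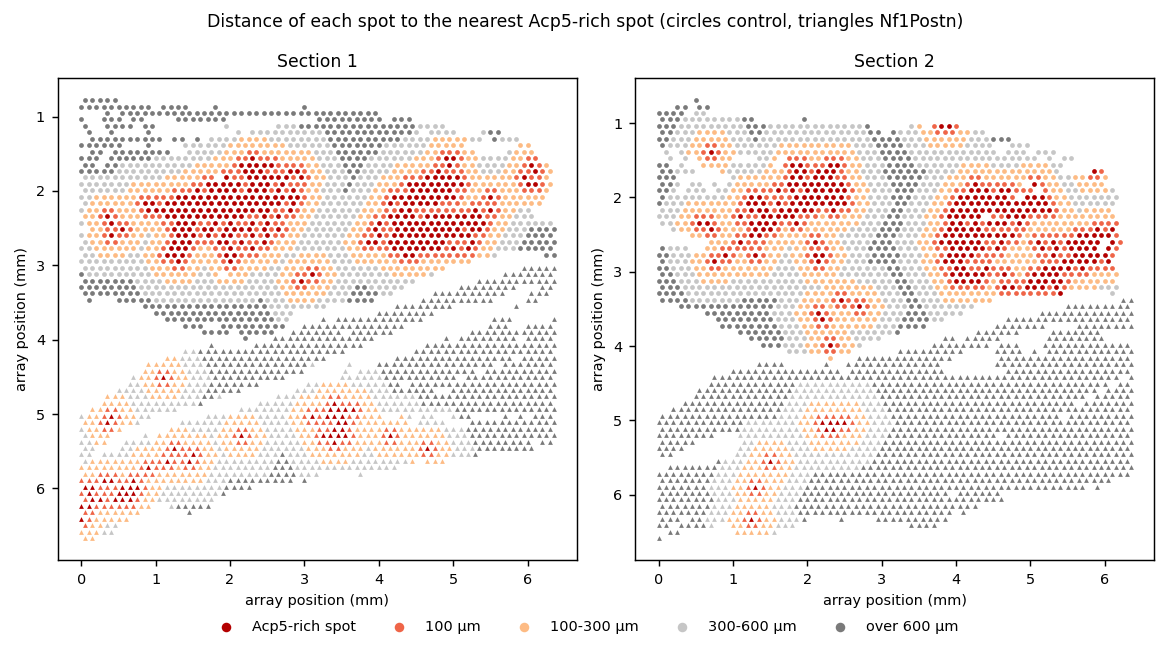
Map of both sections with array position in mm on both axes, where each point is 1 spot, circles are the control callus, triangles the Nf1Postn callus, and the colour gives the distance class to the nearest *Acp5*-rich spot of the same callus. The 276 and 258 rich control spots cover larger fields than the 49 and 9 rich Nf1Postn spots.

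*Tnfsf11*, the ligand, was highest in and next to the *Acp5*-rich spots of the control callus. The gene lies on chromosome 14, from base 78514885 to 78545484 of mm39. Its level in section 1 was 60.5 CPM in *Acp5*-rich spots, 59.3 in spots that touch one, 44.0 in spots 100 to 300 µm away, 31.5 at 300 to 600 µm and 15.1 beyond 600 µm. In section 2 the same classes had 56.3, 44.1, 32.8, 20.2 and 28.7 CPM, so the level fell off with distance in both sections except for the farthest class of section 2. The log2 ratio of rich over far spots was 2.00 (1.51 to 2.53) in section 1 and 0.97 (0.42 to 1.55) in section 2. Between rich and touching spots the log2 ratio over both sections was 0.18 (-0.10 to 0.47), an interval that includes 0.

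*Tnfrsf11a*, the receptor of RANKL on osteoclasts and their precursors (chromosome 1, 105708443 to 105775710), had its peak in the rich spots themselves. Rich control spots had 108 and 91.6 CPM in sections 1 and 2, touching spots 48.5 and 49.5, and far spots 17.6 and 19.4. Every rich value lay above every touching value and every touching value above every far value. Pooled over sections, rich spots had a 5.57-fold higher level than far spots (log2 ratio 2.48, 2.13 to 2.85) and a 2.07-fold higher level than touching spots (log2 ratio 1.05, 0.79 to 1.32). Per section, the log2 ratio of rich over touching spots was 1.15 (0.79 to 1.52) and 0.89 (0.49 to 1.3) for *Tnfrsf11a* and 0.03 (-0.34 to 0.41) and 0.35 (-0.11 to 0.82) for *Tnfsf11*, with intervals of the 2 genes that overlapped in section 2 but not in section 1.

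*Tnfrsf11b*, the decoy (chromosome 15, 54114015 to 54141881), had no such peak. In section 1 its level was 19.5 CPM in rich spots, 22.2 in touching spots, 20.7 at 100 to 300 µm, 35.5 at 300 to 600 µm and 29.5 beyond. In section 2 these were 15.5, 17.5, 22.3, 18.6 and 16.5 CPM. The rich spots were thus lower than the far spots in section 1, with a log2 ratio of -0.60 (-1.14 to -0.07), and in section 2 the ratio was -0.09 (-0.97 to 0.79), which the counting error does not separate from 0.

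*Csf1*, the secreted growth factor of the macrophage lineage (chromosome 3, 107648364 to 107667786), was likewise highest in and next to rich spots. Its level was 36.6 and 35.9 CPM in rich, 30.2 and 25.4 in touching, 17.8 and 18.9 at 100 to 300 µm, 10.9 and 15.3 at 300 to 600 µm, and 11.2 and 11.5 in far control spots of sections 1 and 2. Rich over far gave log2 ratios of 1.70 (1.11 to 2.33) and 1.64 (0.83 to 2.54). *Il34*, the other ligand of CSF1R, known from skin and brain (chromosome 8, 111468461 to 111532557), ran the other way. It had 4.38 and 8.05 CPM in rich spots, from 11 and 13 UMIs, against 10.9 and 12.9 CPM in far spots, from 31 and 18 UMIs. The pooled log2 ratio was -0.99 (-1.76 to -0.26), and in section 2 alone it was -0.68 (-1.83 to 0.43).

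*Csf1r*, the receptor of both, which marks monocytes, macrophages and osteoclast precursors, had 322 and 329 CPM in rich spots, 192 and 193 in touching spots and 74.5 and 105 in far control spots. The log2 ratios of rich over far were 2.11 (1.89 to 2.34) and 1.65 (1.38 to 1.92). Summed levels of 8 macrophage markers had the same order in section 1, with 722 CPM in rich, 686 in touching and 556 in far control spots. In section 2 they did not, with 731, 944 and 738 CPM. Their part in the *Csf1r* levels was not tested. *Nfatc1*, the osteoclast transcription factor that endothelial and some skeletal cells also express, had a shallower course, from 57.8 and 47.0 CPM in rich through 37.0 and 34.4 in touching to 24.3 and 26.6 in far spots. Its log2 ratios were 1.25 (0.83 to 1.69) and 0.82 (0.24 to 1.43). Both genes lie on chromosome 18 of mm39, *Csf1r* from base 61233670 to 61265222 and *Nfatc1* from 80649420 to 80756287.

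A gene was counted as past 2-fold if it had at least 20 UMIs in each section over the spots compared and differed by at least 2-fold the same way in both. Of the 7 members, 3 were higher in rich than in far control spots by this rule (*Tnfrsf11a*, *Csf1* and *Csf1r*) and 0 were lower, where 2.7% of all 10474 genes that could be read were higher and 5.33% lower. The members' median log2 ratio was 1.59, against -0.04 over all genes. *Tnfsf11* and *Nfatc1* missed the rule by their section 2 values of 0.97 and 0.82. Of the 14 osteoclast effectors, 13 were higher and all 14 had a higher level in both sections, which is close to how the spots were chosen. Osteoblast and osteocyte markers moved with distance too. The summed level of 5 osteoblast markers was 51291 and 48260 CPM in rich and 29648 and 29665 CPM in far control spots, that of 6 osteocyte markers 2879 and 2594 against 301 and 435 CPM, and that of 4 hypertrophic chondrocyte markers 4760 and 4608 against 1001 and 1235 CPM. Skeletal muscle markers ran the other way, with 7739 and 13223 against 33006 and 35028 CPM. The 4 hypertrophic chondrocyte markers were *Col10a1*, *Ihh*, *Mmp13* and *Spp1*, and their sum does not show which of them was higher in rich spots. Of these, *Col10a1* and *Ihh* were among the leading genes of the cartilage cluster described further on. The part of all these tissues in the members' gradients was not tested.

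**Figure D2:**
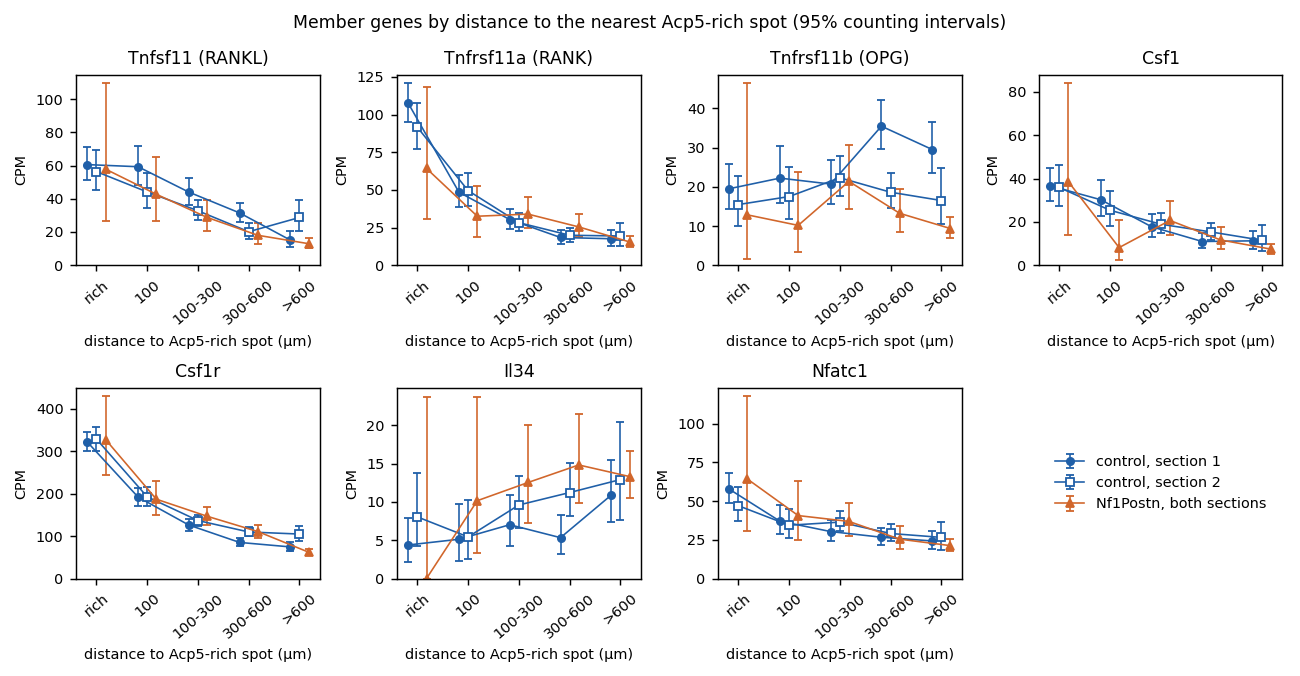
Level of each member in CPM (vertical axis, from 0) by distance class to the nearest *Acp5*-rich spot (horizontal axis, µm), where filled circles and open squares are the control callus in sections 1 and 2, triangles the Nf1Postn callus over both sections, and bars 95% counting intervals. *Tnfrsf11a* and *Csf1r* drop most steeply from the rich control spots, from 108 to 17.6 and from 322 to 74.5 CPM in section 1, while *Tnfrsf11b* and *Il34* have no peak there.

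The distance of single UMIs gives the same data in another form. Weighted by UMIs of all genes, the median distance to an *Acp5*-rich spot in the control callus was 265 µm, and 29.3% of UMIs lay in rich or touching spots. For *Tnfrsf11a* and *Csf1r* the medians were both 100 µm, with 59.0% and 50.8% of their UMIs in rich or touching spots. For *Tnfsf11* and *Csf1* they were 173 µm, with 44.9% and 48.1%, and for *Nfatc1* 265 µm, with 39.2%. Over both sections *Tnfrsf11b* and *Il34* lay farther out than the tissue as a whole, with medians of 346 and 361 µm. They had 24.1% and 20.2% of UMIs in rich or touching spots. In section 1 the *Tnfrsf11b* median was 400 µm against 300 µm for all genes. In section 2 both medians were 265 µm, with 23.6% and 27.0% in rich or touching spots. *Il34* had medians of 361 and 346 µm in sections 1 and 2.

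Levels were also compared within woven bone. In the spots of section 1 that the authors labelled woven bone, *Tnfrsf11a* had 107 CPM in *Acp5*-rich and 49.1 CPM in the other spots (log2 ratio 1.13, 0.77 to 1.49), *Csf1r* 329 and 165 CPM (0.99, 0.80 to 1.19) and *Nfatc1* 58.7 and 35.0 CPM (0.74, 0.30 to 1.20). In the same spots *Tnfsf11* had 61.6 and 64.4 CPM (-0.06, -0.43 to 0.30), *Csf1* 37.3 and 32.2 CPM (0.21, -0.28 to 0.72) and *Tnfrsf11b* 19.7 and 22.0 CPM (-0.16, -0.80 to 0.49). Among these spots both receptors and *Nfatc1* were higher where *Acp5* was high, whereas the intervals of *Tnfsf11*, *Csf1* and *Tnfrsf11b* included 0. In the cluster that matched woven bone, the log2 ratio of rich over other control spots was 0.47 (0.07 to 0.88) in section 1 and 0.55 (0.04 to 1.06) in section 2 for *Tnfsf11*, and 0.34 (-0.16 to 0.85) and 0.96 (0.31 to 1.64) for *Csf1*.

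By the authors' tissue labels, woven bone had the highest level of *Tnfsf11*, *Tnfrsf11a*, *Csf1*, *Csf1r* and *Nfatc1* among the 4 tissues with over 100 spots. *Tnfsf11* had 62.8 CPM (55.4 to 70.9) in woven bone, 43.1 (33.5 to 54.7) in cartilage, 28.7 (24.4 to 33.6) in ossifying perichondrium and 22.0 (12.8 to 35.2) in progenitor spots. The interval of woven bone lay above the other 3, each of which overlapped its neighbour. *Tnfrsf11a* was 82.5 CPM (74.0 to 91.7) in woven bone and between 17.8 and 34.9 CPM in the other 3, and *Csf1* 35.1 CPM (29.7 to 41.3) against 11.5 to 16.8 CPM. *Csf1r* had 259 CPM (244 to 275) in woven bone, then 141 (116 to 170.1) in progenitor spots, and 94.3 and 80.6 CPM in ossifying perichondrium and cartilage. *Nfatc1* was 48.6 CPM (42.1 to 55.8) in woven bone, where its interval overlapped that of the progenitor spots at 31.0 CPM (19.9 to 46.2).

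*Tnfrsf11b* had another order, with 39.96 CPM (30.7 to 51.1) in cartilage and 31.5 (27.0 to 36.6) in ossifying perichondrium, above 20.7 (16.6 to 25.6) in woven bone, while progenitor spots at 24.6 CPM (14.8 to 38.4) overlapped all 3. *Il34* was low in woven bone and cartilage, at 3.85 and 3.17 CPM from 16 and 5 UMIs, and reached 8.61 CPM (6.32 to 11.4) in ossifying perichondrium and 11.6 CPM (5.32 to 22.1) in progenitor spots. The label of distal cortical bone covered 50 spots in which the members had between 0 and 10 UMIs, so their levels there could not be placed. *Il34* had 0 UMIs there, where 3 counts would be 25.8 CPM.

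**Figure D3:**
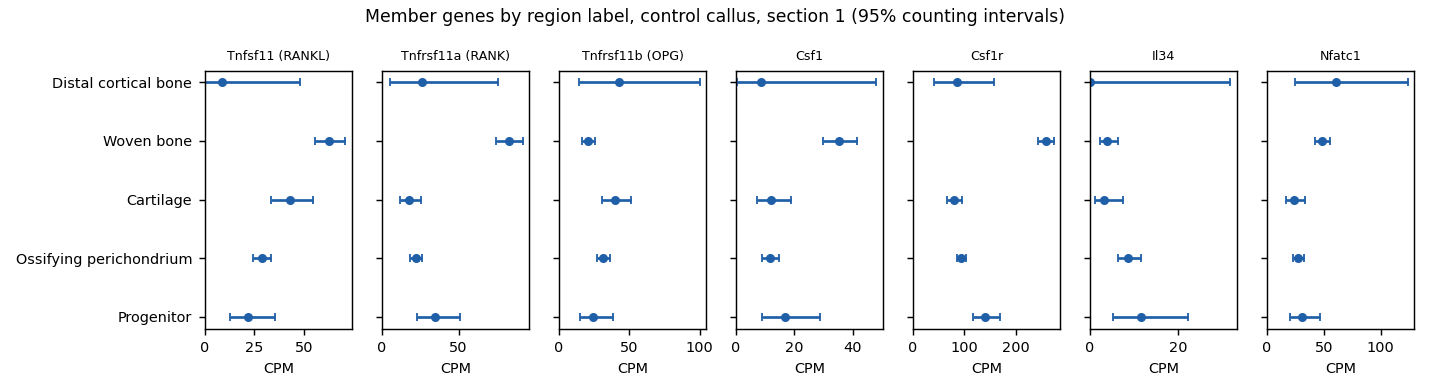
Level of each member in CPM (horizontal axes, from 0) by tissue label (vertical axis) over the labelled spots of the control callus in section 1, with bars for 95% counting intervals. Woven bone has 62.8 CPM of *Tnfsf11* and 82.5 CPM of *Tnfrsf11a*, while *Tnfrsf11b* is highest in cartilage and ossifying perichondrium, at 39.96 and 31.5 CPM, apart from the wide interval of the 50 cortical spots.

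Clusters of spots over both sections and genotypes extended this to tissues without a label, and the levels that follow are those of their control spots. Of 13 clusters, 4 took a name from the authors' labels: woven bone, ossifying perichondrium, cartilage and progenitor. Labels covered section 1 control spots only, so a name does not show what the other spots of a cluster hold. Cluster 10 was named progenitor by 97 of its 112 labelled spots and held 361 spots in all. Its leading genes include the adipocyte markers *Cfd* and *Adipoq*. *Tnfsf11* had 62.6 CPM (37.7 to 97.8) in cluster 7, led by *Angptl7* and *Cilp2*, from 19 UMIs, 52.7 (44.5 to 62.0) in cartilage, 50.1 (45.0 to 55.6) in woven bone and 40.9 (29.7 to 54.9) in cluster 3, led by hemoglobin genes, *Mepe* and *Bglap*, 4 levels that the intervals do not order. It was 9.90 and 9.68 CPM in clusters 1 and 11, led by the muscle genes *Myh7* and *Myot* and *Tnnt2* and *Myh3*. *Tnfrsf11a* was highest in woven bone, at 73.9 CPM (67.7 to 80.5), above the interval of cluster 3 at 39.0 CPM (28.1 to 52.8). *Csf1r* had 241 CPM (229 to 252) in woven bone and 188 (142 to 243) in cluster 7, which overlapped. *Nfatc1* had 47.4 CPM (35.3 to 62.3) in cluster 3 and 44.0 (39.3 to 49.2) in woven bone, also with overlap. *Tnfrsf11b* had 35.5 CPM (28.9 to 43.2) in cartilage and 27.1 (23.9 to 30.7) in ossifying perichondrium, again overlapping. *Il34* had 18.6 CPM (12.04 to 27.5) in cluster 11 and 14.6 (8.81 to 22.9), an overlapping level, in the progenitor cluster, whose leading genes were *Cfd*, *Cadm4*, *Cxcl14* and *Adipoq*, and it had 6.37 CPM (4.65 to 8.52) in woven bone.

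Of the control UMIs of all genes, 27.5% lay in the woven bone cluster. The share was 52.7% (49.5 to 55.8) for *Tnfrsf11a*, 44.4% (40.03 to 48.8) for *Csf1*, 43.3% (41.7 to 44.8) for *Csf1r*, 37.9% (34.7 to 41.1) for *Tnfsf11* and 35.6% (32.4 to 38.9) for *Nfatc1*. It was 22.2% (18.9 to 25.8) for *Tnfrsf11b* and 21.6% (16.2 to 27.9) for *Il34*. The first 5 genes lay above the share of all genes in each section, and *Tnfrsf11b* and *Il34* below it.

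The balance of ligand and decoy was read as *Tnfsf11* UMIs per *Tnfrsf11b* UMI, which compares groups of spots but not numbers of transcripts. In the control callus of section 1 it was 3.10 (2.23 to 4.37) in *Acp5*-rich spots, 2.67 in touching spots, 2.12 at 100 to 300 µm, 0.887 at 300 to 600 µm and 0.512 (0.346 to 0.748) beyond. In section 2 it was 3.64 (2.32 to 5.92), 2.52, 1.47, 1.08 and 1.74 (1.02 to 3.04). Rich and far spots differed by 2.60 (1.85 to 3.35) on the log2 scale in section 1 and by 1.07 (0.00 to 2.12) in section 2, and the farthest class of section 2 rested on 40 and 23 UMIs. By the authors' labels the ratio was 3.03 (2.37 to 3.92) in woven bone, 1.08 (0.75 to 1.55) in cartilage, 0.913 (0.73 to 1.14) in ossifying perichondrium and 0.895 in progenitor spots.

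Labelled control spots of section 1 also carry a SpatialTime value, which bins them by distance from the fracture plane, with 0 nearest to it. The ratio of *Tnfsf11* to *Tnfrsf11b* UMIs was 0.613 (0.475 to 0.788) in bins 0 to 4 and 2.31 (1.70 to 3.17) in bins 5 to 9, and it stayed between 2.11 and 2.37 in the 3 classes beyond. Both genes differed between these bins. *Tnfrsf11b* went from 48.2 CPM (41.2 to 56.0) to 22.8 (17.5 to 29.3) and *Tnfsf11* from 29.5 CPM (24.1 to 35.8) to 52.8 (44.4 to 62.2). *Tnfrsf11a* and *Csf1* had their largest step 1 class later, from 29.9 to 74.5 CPM and from 13.1 to 32.6 CPM between bins 5 to 9 and bins 10 to 14, the step at which *Acp5* went from 2024 to 5920 CPM.

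**Figure D4:**
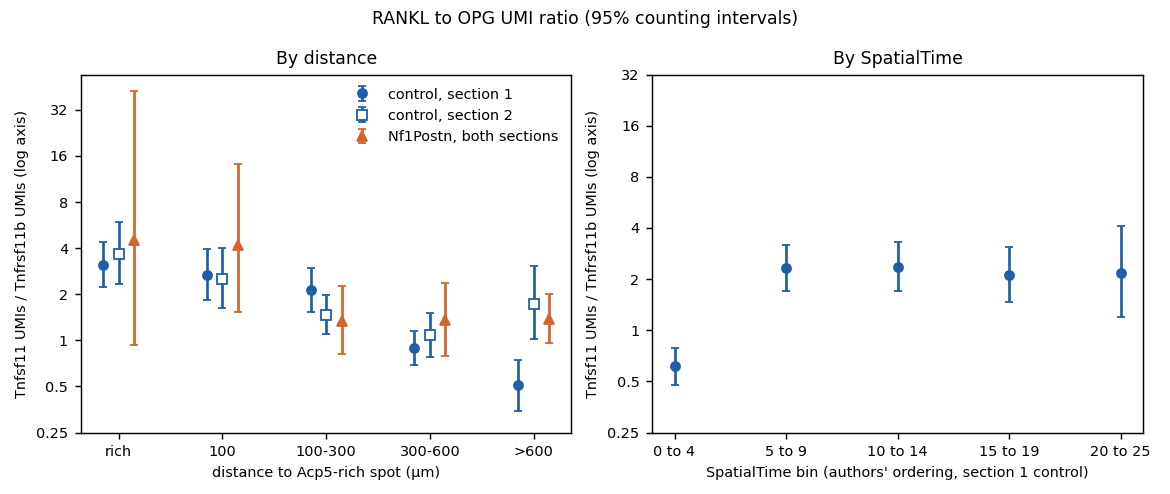
*Tnfsf11* UMIs per *Tnfrsf11b* UMI on a log axis, left by distance class to the nearest *Acp5*-rich spot (filled circles and open squares are control sections 1 and 2, triangles the Nf1Postn callus over both sections) and right by SpatialTime bin in section 1 control spots, with bars for 95% counting intervals. The ratio falls from 3.10 and 3.64 in rich control spots to 0.887 and 1.08 at 300 to 600 µm, and is 0.613 nearest the fracture plane.

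Between the genotypes, *Nf1* itself had 87.8 and 79.0 CPM in the control and 65.6 and 49.6 CPM in the Nf1Postn callus of sections 1 and 2. Where its probes lie relative to the deleted part was not analysed here, so this level checks nothing about the deletion. 6 of the 7 members were lower in the Nf1Postn callus in both sections and *Il34* was higher in both. *Tnfsf11* had 39.5 and 32.9 CPM in the control and 24.3 and 15.2 CPM in the Nf1Postn callus, with log2 ratios of -0.70 (-1.05 to -0.37) and -1.11 (-1.46 to -0.78). *Tnfrsf11a* had 41.0 and 35.9 against 27.2 and 18.7 CPM, *Tnfrsf11b* 26.6 and 18.9 against 16.2 and 9.53 CPM and *Csf1* 19.6 and 20.05 against 13.9 and 8.86 CPM. For these 4 genes every control value lay above every Nf1Postn value.

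*Csf1r* had 149 and 158 CPM in the control and 127 and 76.2 CPM in the Nf1Postn callus, so its log2 ratio ran from -0.23 (-0.38 to -0.08) in section 1 to -1.05 (-1.20 to -0.90) in section 2. *Nfatc1* had 34.0 and 34.1 against 30.6 and 23.4 CPM, and in section 1 its ratio of -0.15 (-0.47 to 0.16) was within counting error. *Il34* had 6.64 and 9.73 CPM in the control and 10.1 and 14.9 CPM in the Nf1Postn callus, with log2 ratios of 0.61 (0.00 to 1.19) and 0.61 (0.20 to 1.02). *Acp5* was lower by log2 ratios of -1.35 and -2.47. 0 of the 7 members were past 2-fold in both sections in either direction, where 1.5% of 13410 genes were lower and 5.79% higher by that rule. With TMM factors in place of plain totals, 356 genes were lower and 630 higher, against 201 and 776. The members' median log2 ratio was -0.82, against -0.05 over all genes. The ratio of *Tnfsf11* to *Tnfrsf11b* UMIs was 1.48 and 1.74 in the control and 1.5 and 1.6 in the Nf1Postn callus, a log2 difference of -0.03 (-0.42 to 0.35) over both sections.

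Other tissues differed between the calluses along with the members. The summed level of 6 skeletal muscle markers was 14899 and 22004 CPM in the control and 65800 and 118481 CPM in the Nf1Postn callus, that of 3 erythroid markers 154 and 272 against 1714 and 1527 CPM, and that of 6 chondrocyte markers 45483 and 28687 against 3989 and 8023 CPM. The 8 osteoclast markers summed to 7633 and 6387 against 3616 and 1613 CPM, and 5 osteoblast markers to 39800 and 41216 against 25722 and 18037 CPM, and each of the markers summed was detected in each group. Their part in the genotype ratios was not tested. The woven bone cluster held 440 and 297 control spots and 9 and 16 Nf1Postn spots, too few in the latter for a comparison. 7 clusters had at least 20 spots of each genotype in each section. Together they held 53.2% of the control and 73.2% of the Nf1Postn spots, without the woven bone and cartilage clusters. In each of the 7, the control level gave the number of UMIs expected in the Nf1Postn spots. Observed over expected UMIs were then summed, a comparison that was added after the data had been seen and that covers these clusters only.

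For both sections together, the control level of each cluster was pooled over the sections. The ratios of the 6 lower members then came closer to 1 than over all spots, which include the clusters left out. In section 1 alone the *Nfatc1* ratio moved away from 1. Such pooled ratios can lie outside those of both sections, as did *Tnfrsf11a* at 0.965 and *Il34* at 1.38. The intervals of these ratios hold the counting error of the observed UMIs only, with the expected number taken as fixed, so they are too narrow. In section 2, cluster 1 had 635 Nf1Postn spots but 22 control spots, with 2 *Tnfsf11* and 1 *Tnfrsf11b* UMIs. The observed over expected ratio for *Tnfsf11* was 1.25 (0.98 to 1.58) in section 1 and 0.617 (0.487 to 0.771) in section 2. It was 0.988 (0.789 to 1.22) and 1.29 (1.05 to 1.57) for *Tnfrsf11a*, and 1.04 (0.769 to 1.38) and 0.562 (0.396 to 0.774) for *Tnfrsf11b*. These 3 genes thus lay on different sides of 1 in the 2 sections or near it. *Csf1* stayed below 1 in both, at 0.759 (0.543 to 1.03) and 0.689 (0.503 to 0.922), and *Csf1r* was 0.970 and 0.765. *Nfatc1* was 1.42 (1.14 to 1.74) and 0.995, and *Il34* 1.26 (0.867 to 1.77) and 0.989 (0.791 to 1.22). Summed over distance classes to *Acp5*-rich spots instead, *Tnfrsf11b* was 0.578 (0.436 to 0.75) and 0.55 (0.416 to 0.712), *Tnfsf11* 0.734 and 0.537, and *Tnfrsf11a* 0.999 and 0.876. In section 2 these distances ran to 9 rich Nf1Postn spots. The class beyond 600 µm there held 1211 of 1556 Nf1Postn spots and 225 control spots, and in section 1 it held 582 of 1341 Nf1Postn spots. Position was thus matched only coarsely, and the tissue within a class was not matched.

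Single regions carried few UMIs, and the ratios named here were picked from those of 7 members in 7 compared clusters. Among so many, some intervals can exclude 0 by counting error alone. In the ossifying perichondrium cluster, *Tnfrsf11b* had 27.1 CPM in the control and 12.9 CPM in the Nf1Postn callus (log2 ratio -1.08, -2.22 to -0.13). These levels came from 253 and 9 UMIs, and the 9 were 4 and 5 in sections 1 and 2. *Tnfsf11* had 28.6 and 32.8 CPM in that cluster (0.20, -0.49 to 0.81). The ratio of the 2 genes there was 1.06 (0.885 to 1.26) in the control and 2.56 (1.14 to 6.28) in the Nf1Postn callus, with overlapping intervals. Of the 7 clusters compared between the calluses, 4 had a higher ratio in the Nf1Postn callus and 3 a lower one, such as cluster 7 with 2.71 (1.09 to 7.64) in the control and 0.667 (0.138 to 2.81) in the Nf1Postn callus from 4 and 6 UMIs. Among the clusters with too few Nf1Postn spots to be compared, the ratio in cartilage was 1.48 (1.14 to 1.94) in the control and 0.0909 (0.00211 to 0.625) in 28 Nf1Postn spots with 1 and 11 UMIs, and in woven bone it was 2.70 (2.21 to 3.33) and, from 5 and 4 UMIs, 1.25 (0.269 to 6.30). In all 7 compared clusters the intervals of the 2 calluses overlapped, and in cluster 11 the ratios were 0.65 and 0.667. Overlap of 2 separate intervals does not show that their difference includes 0. No interval of the difference between the calluses was taken within a cluster, and the differences were not tested. In cluster 10, named progenitor by its labelled spots, *Il34* had 14.6 CPM in the control and 29.8 CPM in the Nf1Postn callus (1.02, 0.08 to 1.98). These levels came from 19 and 23 UMIs, and per section they were 16.4 and 12.3 against 21.2 and 37.9 CPM.

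The 58 *Acp5*-rich spots of the Nf1Postn callus held few UMIs of the members, so their levels have wide intervals. *Tnfsf11* had 57.8 CPM there from 9 UMIs against 58.9 CPM in the control, *Csf1r* 328 against 324, *Nfatc1* 64.3 against 53.6 and *Csf1* 38.5 against 36.4 CPM. *Tnfrsf11a* had 64.3 CPM from 10 UMIs against 101 CPM, with a log2 ratio of -0.66 (-1.73 to 0.24), which is within counting error. *Il34* had 0 UMIs in these spots, where 3 counts would be 19.3 CPM. Rich over far spots within the Nf1Postn callus gave log2 ratios of 1.77 (0.14 to 3.18) in section 1 and 2.65 (0.33 to 4.27) in section 2 for *Tnfsf11*, and of 1.71 (1.11 to 2.28) and 2.93 (2.10 to 3.66) for *Csf1r*. For *Tnfrsf11a* they were 2.74 (1.33 to 4.08) and, from 1 UMI in rich spots, 0.66 (-4.67 to 3.18). None of the 8 osteoclast markers was at 0 in the rich Nf1Postn spots, which were chosen by *Acp5*. Of the 8 macrophage markers 3 were at 0, which so few UMIs do not tell from a low level.

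**Figure D5:**
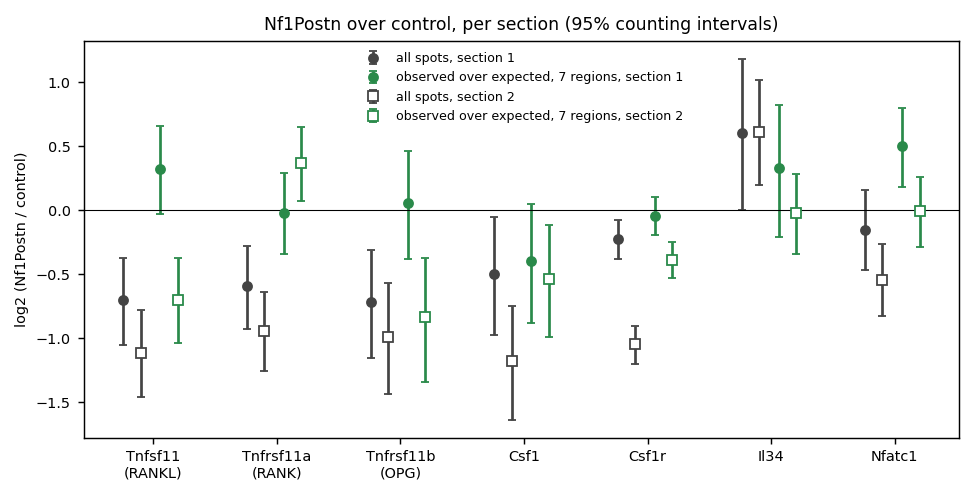
Log2 ratio of Nf1Postn over control for each member, in grey over all spots and in green as observed over expected UMIs summed over the 7 compared clusters, with filled circles for section 1, open squares for section 2 and bars for 95% counting intervals. Green bars hold the counting error of the observed UMIs only. Over all spots 6 members lie below 0 in both sections and *Il34* at 0.61 in both. In green only *Csf1* and *Csf1r* lie below 0 in both sections, and *Tnfsf11* is at 0.33 and -0.70.

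The other genes of the pathway were taken from 4 lists. Of 28 genes of RANK and CSF1 signal transduction, 27 could be read by distance, and 6 were past 2-fold higher in rich than in far control spots and 0 lower, with a median log2 ratio of 0.56, beside 2.7% higher, 5.33% lower and a median of -0.04 over all genes. *Oscar*, a costimulatory receptor of osteoclasts, had 53.3 against 3.30 CPM, *Spi1*, which encodes PU.1, 86.3 against 19.4, *Prdm1*, the repressor Blimp1, 72.9 against 18.2, and *Tyrobp*, the adaptor DAP12, 180.3 against 59.5 CPM. The kinases *Syk* and *Src* were the other 2. *Oscar* is also among the 14 osteoclast effectors, whose rise is close to how the spots were chosen. Of 10 repressors of osteoclast formation, 1 was higher, the NF-κB inhibitor *Nfkbia* at 276 against 112 CPM, and 0 were lower. *Id2* had 46.8 against 24.5, *Tnfaip3* 10.7 against 6.84, and *Bcl6* 33.2 against 52.9 CPM.

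Of 17 regulators of *Tnfsf11* in stromal cells, 12 could be read by distance. *Lifr*, the receptor of leukemia inhibitory factor, was higher at 388 against 77.4 CPM, and so was *Vdr*, the vitamin D receptor, at 131 against 40.4 CPM. *Pthlh*, which encodes parathyroid hormone-related protein, was lower in rich spots at 4.12 against 11.8 CPM, and *Il6ra* had 6.06 against 12.5 CPM. The 4 osteoclast effectors with the largest ratios were *Acp5* itself, *Dcstamp* and *Ocstamp*, which encode fusion proteins, and *Siglec15*, with log2 ratios of 4.51, 4.47, 4.33 and 4.20.

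The counts of this paragraph use plain totals. Between genotypes, 0 of the 28 signal transduction genes and 0 of the 10 repressors were past 2-fold in both sections. Their median log2 ratios were -0.24 and -0.18. TMM factors move log2 ratios by -0.28 in section 1 and 0.002 in section 2. *Prdm1* had -0.84 and -1.34 in sections 1 and 2 and *Oscar* -0.90 and -1.08. With that shift both pass 2-fold lower, so the 0 of 28 depends on the factors. Among the largest ratios were those of *Prdm1* at -1.15, *Oscar* at -1.06, *Fosl2* at -0.81 and *Tfe3* at -0.59 in the first list, and of *Id2* at -0.99, *Id1* at -0.81 and *Bcl6* at 0.62 in the second. Of the 17 regulators of *Tnfsf11*, 3 were past 2-fold lower in the Nf1Postn callus, where 1.5% of all genes were, and 0 higher. *Ptgs2*, which encodes the prostaglandin synthase COX-2, had 14.7 against 65.1 CPM, *Vdr* 23.4 against 70.6 CPM, and *Pth1r*, the receptor of parathyroid hormone, 149.7 against 373 CPM, while *Lifr* had 96.5 against 176 CPM. Of the 14 effectors, 5 were lower (*Acp5*, *Ocstamp*, *Siglec15*, *Mmp9* and *Dcstamp*), with a median over the list of -1.05, and *Car2*, which red cells also express, was higher at 90.7 against 44.2 CPM.

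The genes most like each member were found by Pearson's r of log2(CPM + 1) over 40 groups of spots, each 1 cluster in 1 section and 1 genotype, among 8628 genes with at least 500 UMIs, a minimum that left out *Il34*. These groups share sections and depth, many hold few UMIs of a member, and r is a description only. *Csf1r* had *Ctsc* (r = 0.96), which encodes a lysosomal protease, among its 5 nearest. *Csf1* was most like *Ism1* (0.92), with *Itgb3* (0.88) among its 5 nearest, and *Tnfrsf11a* was most like *Src* (0.91) and *E2f3* (0.91). *Tnfsf11* was most like *Spc24* (0.87), with the osteoclast fusion gene *Ocstamp* (0.82) among its 5 nearest, *Tnfrsf11b* like *Pla2g4a* (0.86) and *Kif21b* (0.86), and *Nfatc1* like *Gtf2ird1* (0.89) and *Tcf19* (0.89). Among the members, *Tnfsf11* had r = 0.71 with *Csf1*, 0.64 with *Tnfrsf11a* and 0.30 with *Tnfrsf11b*, and *Tnfrsf11a* had r = 0.73 with *Csf1r* and 0.04 with *Tnfrsf11b*.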

How the data were processed

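The authors processed 2 sections with Space Ranger 1.3.0 on mm39 and exported UMI tables of genes by spots from Partek Flow. The deposited values were read as estimated counts because 10 entries that join several gene IDs hold a mean and are not whole. An entry without a gene name was left out (6.8e-05% and 3.8e-05% of UMIs). The authors also deposited genotype labels and grid positions. Tissue labels and SpatialTime of 1344 spots came from the paper's supporting values and served only as groups.

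CPM were pooled per group of spots. Distances ran to the nearest *Acp5*-rich spot of the same section and callus. Spots were clustered on log2(CPM + 1), centred per section (seed 1, 20 principal components, 15 neighbours, Leiden resolution 0.5, leidenalg 0.10.2), without the members and listed genes, on 16750 of the 16902 genes seen in at least 0.3% of spots. A cluster took a tissue label that at least 50% of its labelled spots carried. A minimum of 100 labelled spots was added after seeing the data. Intervals are exact (Poisson for levels, conditional binomial for ratios). Those of observed over expected sums are Poisson intervals of the observed UMIs alone. Up to 4 genes per list are named, those with the largest log2 ratio in one direction in both sections, besides genes past 2-fold and leading genes of clusters. Some genes that this rule names are not reported here. The members, lists and comparisons were chosen with earlier results of these data known. The calling rule was tested on simulated data with changes and counts well above its limits, so its behaviour at those limits was not tested. Alternatives were a section left out, TMM factors (edgeR 4.0.16 in R 4.3.3), a depth minimum and thinning to 1000 UMIs, a mean of log2(CPM + 1) over spots, other thresholds and clusterings, other minimum counts, and the observed over expected sums. Depth was 13562254 and 12122419 UMIs in the control and 3462224 and 5984157 in the Nf1Postn callus of sections 1 and 2.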

Additional observations from a re-analysis of the deposited data

Results flagged for a closer look

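4 pairs of clusters had genotype ratios (Nf1Postn over control) of opposite direction in both sections for the same member, each section and genotype with at least 5 UMIs, and the differences were not tested. *Csf1r* had log2 ratios of 0.35 in the ossifying perichondrium cluster and -0.11 in cluster 10, named progenitor by its labelled spots, a difference of 0.46. In cluster 8, led by *Retnla* and *Ache*, it had -0.59, a difference of 0.94. *Nfatc1* had 0.53 in the ossifying perichondrium cluster and -0.25 in cluster 3, a difference of 0.79. *Tnfrsf11a* had 0.53 and -0.41 in the same 2 clusters, a difference of 0.94. All 4 pairs include the ossifying perichondrium cluster, which had 24 and 43 Nf1Postn spots in sections 1 and 2. They were found by a search over all members and compared clusters.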

How the results depend on the processing

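With 1 mouse per genotype assumed and low counts, these values limit what can be read, and the cause of each move was not tested. Of 56 alternative values of the genotype ratios, 34 moved by less than the counting interval, of 56 values of the rich over far ratios 44, of 8 values of the *Tnfsf11* to *Tnfrsf11b* difference 6 and of 35 woven bone shares 20. Of 20 gene counts, 8 stayed within 1.5 times the main count. No paired analysis was made because 1 mouse per genotype, as assumed here, gives no test. The ratios within each section, which holds both calluses, are printed instead. In single sections the genotype log2 ratios ran from -1.11 to -0.70 for *Tnfsf11*, -0.94 to -0.59 for *Tnfrsf11a*, -1.18 to -0.50 for *Csf1*, -1.05 to -0.23 for *Csf1r* and -0.54 to -0.15 for *Nfatc1*. The rich over far ratio in single sections ran from 0.97 to 2.00 for *Tnfsf11* and from 1.65 to 2.11 for *Csf1r*, and the *Tnfsf11* to *Tnfrsf11b* difference from 1.07 to 2.60.

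Observed over expected UMIs, chosen after seeing the data, used control levels pooled over both sections here. Over the compared clusters, genotype log2 ratios were -0.14 for *Tnfsf11*, -0.051 for *Tnfrsf11a*, -0.26 for *Tnfrsf11b* and -0.55 for *Csf1*. *Csf1r* had -0.30 and *Nfatc1*, reversed, 0.073. In single sections *Tnfrsf11a* had -0.017 and 0.37. Over distance classes the pooled log2 ratios were -0.47 for *Tnfsf11*, -0.072 for *Tnfrsf11a*, -0.39 for *Csf1*, -0.13 for *Csf1r* and -0.10 for *Nfatc1*. TMM factors moved every genotype log2 ratio by -0.11, and by -0.28 in section 1, and gave -0.80 for *Csf1r*. Thinning to 1000 UMIs, a single random draw, gave -0.23 for *Tnfrsf11b*, with UMIs left in 60 control and 39 Nf1Postn spots. The mean of log2(CPM + 1) over spots, in which shallow spots without a UMI weigh as much as deep ones, gave -2.43 for *Csf1r*, -0.83 for *Nfatc1* and, reversed, -0.057 for *Il34*.

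For rich over far control spots, taking the highest 5% of spots gave 1.03 for *Tnfsf11* and 1.68 for *Csf1r*. Taking the highest 20% gave 2.18 for *Tnfsf11*, 2.49 for *Csf1* and 2.77 for the *Tnfsf11* to *Tnfrsf11b* difference. The same random thinning gave 2.94 for *Tnfrsf11a*, which kept UMIs in 8 far control spots, and 1.17 for *Csf1r*. The mean over spots gave 1.03 for *Csf1*, 3.66 for *Csf1r* and -0.22 for *Il34*.

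Genes past 2-fold higher in the Nf1Postn callus numbered 499 with at least 50 UMIs per section, 2691 with at least 1 UMI, and 1251 to 1763 in single sections, against 776. Those lower numbered 356 with TMM and 322 to 871 in single sections, against 201. In rich over far spots, 424 to 620 were higher in single sections, against 283, and those lower numbered 369 with at least 50 UMIs, 843 with at least 1 and 1014 to 1033 in single sections, against 558. The share of control UMIs in woven bone at resolution 1.0, where 2 clusters and 944 control spots matched woven bone against 737, was 48.1% for *Tnfsf11*, 57.3% for *Tnfrsf11a*, 29.0% for *Tnfrsf11b*, 50.9% for *Csf1*, 48.4% for *Csf1r* and 42.3% for *Nfatc1*. The share of all genes is not given for resolution 1.0. These values therefore cannot be set against the 27.5% of all genes in the main clustering. In single sections of the main clustering the share ran from 33.6% to 41.0% for *Tnfsf11* and 42.3% to 60.8% for *Tnfrsf11a*. It ran from 34.2% to 53.8% for *Csf1*, 33.2% to 52.8% for *Csf1r* and 27.1% to 43.2% for *Nfatc1*. The higher value of each gene was that of section 1, where all genes had 31.5%. The lower was that of section 2, where all genes had 23.1%.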
